A study of Mus musculus with 34 samples.

Results

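The regions described here are stretches of chromatin that carried H3K27me3, the histone mark of Polycomb repression, in both limb and forebrain of the mouse embryo and carried no H3K4me3, the mark of active or poised gene starts, in either. H3K27me3 peaks of the 2 tissues were merged into 18103 regions. Of these, 4677 held a peak of both tissues, and 884 of the 4677 had not 1 bp in common with an H3K4me3 peak of limb or forebrain. Those 884 are the Polycomb regions without H3K4me3. The other 3793 regions of both tissues overlapped H3K4me3, and 13426 regions held a peak of 1 tissue only. They were chosen by the measured H3K27me3 and H3K4me3 peaks, so values of those marks are given as a description.

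The series mapped chromatin by immunoprecipitation and sequencing (ChIP-seq) in embryos of day 11.5 and in embryonic stem cells (ESC). Histone marks came from limb and forebrain of CD1 embryos, about 150 pooled per sample. An antibody against the FLAG tag was used on tissue of strain 129/C57BL/6, pooled from about 150 or 300 embryos, and on ESC of that strain. It recovered tagged SMARCA4 (the ATPase of the SWI/SNF chromatin remodelling complex) from ESC, limb, heart, face, neural tube and 3 parts of the brain (forebrain, midbrain, hindbrain). It also recovered SMARCC2, another SWI/SNF subunit, from face and hindbrain, and the histone acetyltransferase EP300 from face and ESC. From hindbrain came NCOA1 and NCOA2, coactivators of nuclear receptors. The labels name a SMARCA4/FLAG knock-in as genotype on every FLAG sample and its control, also where another protein was tagged, and give the sex of all samples as pooled male and female. One SMARCA4 sample, hindbrain by its title, carries a forebrain tissue tag and was kept as hindbrain. There were 14 FLAG lists, 6 lists of FLAG controls, 3 inputs of the histone samples and 7 histone mark lists, each from 1 library. With no replicate, no p-value was computed, and intervals (exact 95% Clopper-Pearson) cover counting error only. The FLAG lists held from 1414 peaks (NCOA1) to 35099 (SMARCA4 in face), so shares are compared between kinds of region within a list. The tissue labels were checked against marker genes. H3K4me3 lay on the starts of 13 of 14 forebrain markers in forebrain and of 6 in limb, and on the starts of 14 of 14 limb markers in limb and of 9 in forebrain. H3K27me3 lay on the starts of 7 of 14 forebrain markers in forebrain and of 14 in limb. For the limb markers it lay on 13 of 14 starts in limb and on 7 in forebrain. For that list H3K27me3 was thus not rarer in the tissue of the label.

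Polycomb repressive complex 2 writes H3K27me3 and holds developmental genes silent in cells that do not use them. Many such genes have CpG-rich starts that carry H3K4me3 as well, a state called bivalent. H3K27me3 without H3K4me3 marks gene starts with no sign of readiness, stretches between and beside developmental genes, and, in female cells, the inactive X chromosome. H3K4me1 is found at enhancers, active or poised, and around gene starts, and H3K27ac at active ones.

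The promoters of genes that start inside such regions are shown by examples. Printed are the 250 bases before the RefSeq start (build GRCm38.p6) of the first named genes that had an entry and started inside a region, with the dinucleotide CG in capitals, together with Tdgf1 and Nanog, 2 pluripotency genes chosen after their values were seen. They show how widely the number of CG varied among these few genes. Bsx has 14 and Prkcb 17, beside a median of 15 over the placed genes that had an entry. As many as 14 stand in 29.4% of all promoters of the table, and as many as 17 in 23.5%. Nanog has 3 and Tdgf1 7, counts reached by 71.0% and 46.3% of promoters.
Bsx (chr9:40873877-40874126, + strand): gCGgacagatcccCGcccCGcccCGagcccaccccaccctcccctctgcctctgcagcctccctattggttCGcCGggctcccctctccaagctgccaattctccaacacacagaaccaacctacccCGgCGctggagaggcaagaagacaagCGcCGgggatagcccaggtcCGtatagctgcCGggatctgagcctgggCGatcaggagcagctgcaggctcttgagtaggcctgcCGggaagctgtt
Slc6a5, first start (chr7:49910049-49910298, + strand): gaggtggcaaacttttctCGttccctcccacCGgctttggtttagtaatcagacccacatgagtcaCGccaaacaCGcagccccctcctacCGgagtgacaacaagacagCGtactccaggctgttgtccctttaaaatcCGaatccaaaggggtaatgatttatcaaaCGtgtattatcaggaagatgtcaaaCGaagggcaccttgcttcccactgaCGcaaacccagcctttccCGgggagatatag
Pdx1 (chr5:147269847-147270096, + strand): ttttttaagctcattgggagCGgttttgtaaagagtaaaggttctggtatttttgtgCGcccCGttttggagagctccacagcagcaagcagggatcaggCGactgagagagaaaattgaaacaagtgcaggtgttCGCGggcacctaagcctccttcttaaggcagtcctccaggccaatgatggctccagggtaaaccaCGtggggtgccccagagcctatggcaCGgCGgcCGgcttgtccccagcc
Prkcb (chr7:122288875-122289124, + strand): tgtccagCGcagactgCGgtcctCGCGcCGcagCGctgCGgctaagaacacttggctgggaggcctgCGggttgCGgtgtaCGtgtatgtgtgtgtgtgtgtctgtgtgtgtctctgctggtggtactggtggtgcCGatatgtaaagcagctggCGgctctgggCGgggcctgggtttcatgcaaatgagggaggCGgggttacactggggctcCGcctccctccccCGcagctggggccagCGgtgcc
Tdgf1 (chr9:110946159-110946408, - strand): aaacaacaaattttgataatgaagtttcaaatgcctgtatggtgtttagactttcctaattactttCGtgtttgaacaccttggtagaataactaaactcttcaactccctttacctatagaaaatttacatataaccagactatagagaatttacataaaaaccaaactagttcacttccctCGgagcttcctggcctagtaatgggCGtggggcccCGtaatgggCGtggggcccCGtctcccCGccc
Nanog, first start (chr6:122707239-122707488, + strand): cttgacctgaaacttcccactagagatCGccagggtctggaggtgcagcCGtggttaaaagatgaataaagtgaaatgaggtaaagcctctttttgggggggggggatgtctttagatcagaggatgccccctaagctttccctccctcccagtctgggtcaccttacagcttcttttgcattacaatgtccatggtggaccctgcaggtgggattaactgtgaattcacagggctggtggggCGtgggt
Slc6a5 holds 11 CG before the start shown and Pdx1 10. Only 66 of the 108 genes that started inside a region had a promoter entry (61.1%), against 63.9% of all placed genes. Those 66 had a median of 9 CG (quartiles 6 and 16.75). The median was 14 for genes that started in regions of both tissues with H3K4me3 and 15 for all placed genes. These values cover the genes with an entry, not the whole set. All other positions below are in mm9, as the files give them.

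The regions without H3K4me3 were of moderate width. The median was 3104.5 bp (quartiles 1690.75 and 5114, range 605 to 28367), and together they covered 3.65 Mb. Regions of both tissues with H3K4me3 had a median of 4929 bp, and regions of 1 tissue of 1167 bp. The X chromosome held narrower members than the autosomes. The 625 autosomal regions had a median of 3656 bp and the 255 regions on X of 1759 bp, and 4 lay on unplaced sequence. In all 884, at least 1 bp was common to a limb and a forebrain peak. Limb peaks covered 84.2% of their base pairs, forebrain peaks 48.2%, and both 32.4%. The limb part was the wider in 650 and the forebrain part in 233. This was not particular to members. In regions with H3K4me3 limb was the wider in 3471 of 3793, and over the whole lists H3K27me3 peaks had a median of 2052 bp in limb and 990 bp in forebrain. The members' best H3K27me3 peak stood in the middle of the authors' ranking. Its median percentile was 52.3 in limb and 53.9 in forebrain, against 17.5 and 26.4 for regions with H3K4me3 (low is a high rank). On X the median percentiles were 80.5 and 67.1. When only the better-ranked 50% of each H3K27me3 list was used, 253 regions met the rule.

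**Figure D1:**
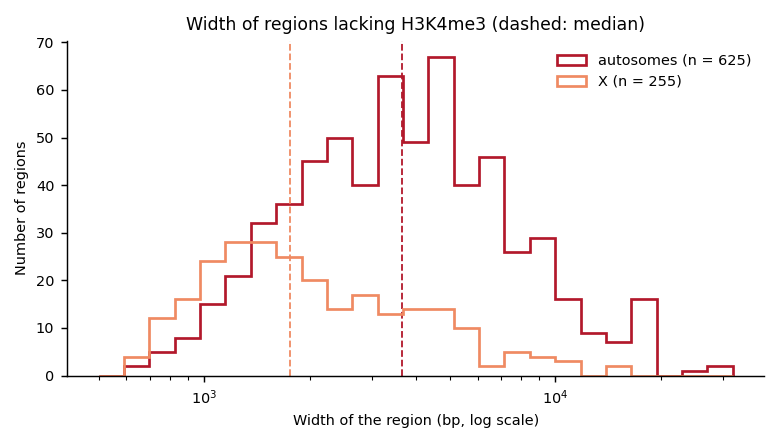
Width of the 625 autosomal and 255 X-linked regions without H3K4me3 (x axis, bp on a log scale; y axis, number of regions; dashed lines, medians). The X-linked regions centre on 1759 bp and the autosomal ones on 3656 bp, and only autosomal ones exceed 20 kb.

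Membership had no sharp edge at the H3K4me3 boundary. The 5 members closest to H3K4me3 lay 19, 29, 37, 48 and 70 bp from such a peak. Closest was chr9:21901091-21907435 beside Ecsit, and the next, chr19:42327329-42330181, lay 91 bp from the start of Golga7b and overlapped 5 FLAG lists. Just outside the rule, 5 regions overlapped H3K4me3 by only 7, 10, 22, 22 and 46 bp, 2 of them over the starts of BC061194 and of the keratin gene Krt18. Most members were farther away, with a median gap of 23932.5 bp to the nearest H3K4me3 peak.

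The X chromosome held 255 of the 884 regions, 28.8%, against 15.2% of all merged H3K27me3 regions. Among X-linked regions of both tissues, 67.3% lacked H3K4me3 (255 of 379, interval 62.3 to 72.0%). On the autosomes 14.6% did (625 of 4292, interval 13.5 to 15.7%), from 6.18% on chromosome 10 to 19.3% on chromosome 8. They were not spread evenly along X. The stretch from 90 to 100 Mb held 52, from 130 to 140 Mb 48 and from 150 to 160 Mb 43, while 20 to 30 Mb and 110 to 130 Mb held 0. The densest group, 24 regions with no gap over 50 kb, lay at chrX:158166046-158532988 between Rai2 and Nhs. Of the H3K27me3 peaks themselves, 10.3% in limb and 16.5% in forebrain were on X, but only 2.64% and 2.96% of H3K4me3 peaks and 1.13% and 0.829% of H3K4me1 peaks. With the better-ranked 50% of the H3K27me3 lists the share of members on X was 5.53%. Since every sample pooled both sexes, male and female chromatin cannot be told apart.

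**Figure D2:**
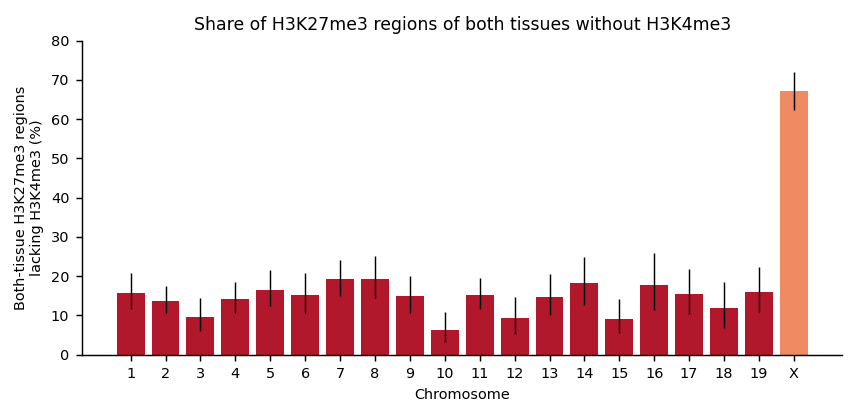
Share of H3K27me3 regions of both tissues that lacked H3K4me3 on each chromosome (y axis, percent; bars start at 0; lines, exact 95% intervals). X stands at 67.3%, and the autosomes lie between 6.18 and 19.3%.

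Few members held a gene start. A start is here the point from which the authors' tables measure distances, worked out where at least 2 peaks gave the same point. It lay inside 105 of the 884 regions (11.9%, interval 9.82 to 14.2%), against 21.0% of all merged regions, and 108 genes started there. In regions of both tissues with H3K4me3 the share was 67.5%, and in regions of 1 tissue 8.48%. Another 11 members reached within 1 kb of a start, which made 116 (13.1%, against 27.8%, and 15.3% of regions of 1 tissue). At the far end, 218 members (24.7%, against 19.7% of all merged regions) lay more than 100 kb from any start. The median gap was 23317 bp on autosomes and 81072 bp on X, where 4 of 255 regions held a start. A gene far from every peak of these tables has no point, so starts of silent genes can be missed.

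The genes that started inside included regulators of development and genes of neurons. Counts within 20 kb here include the genes that started inside. Among homeobox and PAX genes, 4 of 106 started in a member (0.683% of all 15814 placed genes did) and 17 lay within 20 kb of one (2.59% of all genes, 410). Among the 4 were Bsx, a gene of hypothalamic neurons, Pdx1, the pancreatic regulator, and Nkx2-4. Nearly all other genes of that list, 99 of 106, started in regions with H3K4me3 (93.4%, against 17.2% of all placed genes). For the 3 lists that follow, the share in regions with H3K4me3 was 73.8%, 85.1% and 72.7%. A share above that of all genes was thus not particular to members. Among basic helix-loop-helix, zinc finger and AP-2 regulators, 3 of 61 started in a member and 12 lay within 20 kb. Tfap2e, which encodes an AP-2 factor, Insm2 and Mesp1, a regulator of early mesoderm, were the 3. Of forkhead, T-box, GATA and SOX genes, 2 of 47 started in a member (Sox18, of endothelium, and Foxi2) and 6, these 2 included, lay within 20 kb. Of neuronal channels, receptors and synaptic genes, 4 of 77 started in a member and 6, these 4 included, lay within 20 kb. Among the 4 were Slc6a5, the glycine transporter of inhibitory neurons, Kcnk9, a potassium channel, and Htr1a, a serotonin receptor.

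The other gene groups gave counts of 0 or 1 inside members. Of 57 placed signalling genes, 0 started in a member and 3 lay within 20 kb (5.26%, against 2.59% of all genes), Wnt3, Gdf10 and Fgf6. Of 26 housekeeping genes 0 started in or near one, and of 25 imprinted genes 1 did, Phlda2, a gene that limits placental growth. None of 14 forebrain or 14 limb markers started in a member, and Alx4 was the 1 limb marker within 20 kb. In their own tissue 13 of the forebrain and 14 of the limb markers had H3K4me3 on the start, so the rule itself left those out. Only 23 of 41 HOX genes and 11 of 22 germline and placental genes could be placed, so their counts cover a part of each list. Of either, 0 started in a member, and 21 of the 23 HOX genes started in regions with H3K4me3 (91.3%). The one HOX gene near a member was Hoxd1, 14548 bp from a region of 671 bp.

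Of the 10 widest members, some held the start of a developmental or neuronal gene and others lay far from any start. The widest of all, chr8:94380909-94409275 (28367 bp), stood between Irx3 and Irx5, a pair of Iroquois homeobox genes. It was followed by the region over Bsx, chr9:40678967-40706637 (27671 bp), and one between Cd40 and Cdh22, chr2:164921095-164946830 (25736 bp), 39958 bp from the nearest start. Slc6a5 (chr7:57158254-57177592, 19339 bp), Nefh, a neurofilament gene (chr11:4841082-4859546, 18465 bp), and Pdx1 (chr5:148075596-148093962, 18367 bp) lay inside regions of similar width. Others of the 10 widest were chr5:112236953-112255787 near AK087393, chr8:94537717-94556391 over the transcript AK049522, and chr16:94397880-94416544 between Sim2 and Hlcs. The tissues shared them unequally. At Bsx forebrain H3K27me3 was the wider (24478 bp against 12984 bp in limb), while between Cd40 and Cdh22 limb covered all 25736 bp and forebrain 729 bp. Over Slc6a5 the extents were close, 17176 bp in limb and 19339 bp in forebrain.

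H3K4me1 was present on many of the regions. It overlapped 418 members in limb (47.3%, interval 44.0 to 50.6%, against 55.3% of all merged regions) and 305 in forebrain (34.5%, interval 31.4 to 37.7%, against 44.7%). Both tissues marked 242 (27.4%, against 39.6%), limb alone 176 and forebrain alone 63, and 403 carried none (45.6%, against 39.6%). Regions with H3K4me3 carried limb H3K4me1 in 97.2% and forebrain H3K4me1 in 89.2%. In regions of 1 tissue it was 44.0% and 32.8%, a little below members. Counting only H3K4me1 of 500 bp or more gave 404 members in limb (45.7%, against 51.2%) and 293 in forebrain (33.1%, against 40.9%). The mark was much rarer on X. On autosomes 61.3% of members had it in limb and 46.1% in forebrain, on X 13.7% and 6.67%. Where present it covered a median of 1466.5 bp in limb and 1470 bp in forebrain, a part of the region. It also moved with width. Limb H3K4me1 overlapped 22.9% of members under 2 kb and 71.6% of those of 5 kb and over, and the part of width in the difference between X and autosomes was not tested.

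Active H3K27ac was nearly absent from the members. It overlapped 9 of 884 in limb (1.02%, interval 0.467 to 1.92%, against 12.0% of all merged regions), and 23.6% of regions with H3K4me3. The 5 widest of the 9 lay over Kcnk15, a potassium channel gene, over Aldh3a1, between AK160260 and Pou3f1, and at a pair of places on X beside AK048032. At Kcnk15 it covered 666 of 18247 bp. A member 17702 bp from Alx4, a homeobox gene of anterior limb mesenchyme, held 910 bp of it. Forebrain H3K27ac was not analysed here.

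Of the 884 regions, 390 overlapped at least 1 FLAG list (44.1%, interval 40.8 to 47.5%, against 50.7% of all merged regions), and 494 overlapped none. Of the regions with H3K4me3, 97.8% overlapped at least 1, and of the regions of 1 tissue, which were narrower, 37.8%. Overlap with 3 or more FLAG lists was found for 110 members (12.4%, against 28.6%) and with 5 or more for 23 (2.60%, against 12.8%). Regions of 1 tissue stood at 15.8% and 5.91%. Control peaks were common too. At least 1 control list overlapped 183 members (20.7%, interval 18.1 to 23.5%, against 34.1%), 86.9% of regions with H3K4me3 and 20.1% of those of 1 tissue. Inputs of the histone samples overlapped 6 (0.679%, against 0.773%), namely 4 for the limb input (0.470% of all merged regions), 1 for the limb H3K27ac input (0.254%) and 1 for the forebrain input (0.0608%). A FLAG list with no control or input peak was found on 233 members (26.4%, against 19.1% of all merged regions). In regions with H3K4me3 that share was 11.4%. Those regions (86.9%) and all merged regions (34.1%) held control peaks more often than members (20.7%), which lowers this count for them. The order of these shares is thus not read as one of FLAG overlap.

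On X the members were almost free of FLAG peaks. At least 1 FLAG list overlapped 5.49% of the 255 X-linked members (interval 3.03 to 9.04%) and 60% of the 625 autosomal ones (interval 56.0 to 63.9%). Regions with H3K4me3 on X overlapped a FLAG list in 85.5%. Of 146 X-linked members under 2 kb 1 did, of 80 between 2 and 5 kb 6, and of 29 at 5 kb and over 7. Autosomal members of the same widths did so in 33.6%, 59.7% and 77.2%, and autosomal regions with H3K4me3 in 92.1%, 98.4% and 99.2%. The gaps between the 3 kinds of region were thus present within each width class. With the better-ranked 50% of the H3K27me3 lists, 78.3% of the 253 members overlapped a FLAG list. Control lists were likewise rarer on X, on 3.92% of members against 27.2% on autosomes.

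SMARCA4 in face, the longest FLAG list, overlapped 242 members (27.4%, interval 24.5 to 30.4%, against 39.9% of all merged regions and 91.9% of those with H3K4me3). SMARCA4 in neural tube overlapped 138 (15.6%, interval 13.3 to 18.2%, against 28.0% and 72.2%). Forebrain SMARCA4 overlapped 58 (6.56%, against 17.4% and 41.8%), limb SMARCA4 48 (5.43%, against 13.0% and 34.6%), heart SMARCA4 37 (4.19%, against 8.69% and 18.7%) and hindbrain SMARCA4 27 (3.05%, against 7.34% and 21.5%). Midbrain SMARCA4 overlapped 12 (1.36%, against 2.18% and 3.88%). In each of these 7 tissues the share in members was lower than in regions with H3K4me3. The order of the lists depended on their length. With each list cut to its 921 best-ranked peaks, face SMARCA4 overlapped 0.113% of members, ESC SMARCA4 and face SMARCC2 1.36% each, and limb and neural tube SMARCA4 1.02% each.

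For the other tagged proteins, too, the shares of members lay below those of regions with H3K4me3. SMARCC2 in face overlapped 110 members (12.4%, interval 10.3 to 14.8%, against 22.7% of all merged regions and 56.8% of those with H3K4me3), and SMARCC2 in hindbrain 7 (0.792%, against 0.486% and 1.29%). EP300 overlapped 54 in ESC (6.11%, interval 4.62 to 7.90%, against 10.8% and 34.0%) and 8 in face (0.905%, against 2.02% and 3.85%). NCOA2 overlapped 6 (0.679%, against 3.50% and 9.54%). For NCOA1 the count was 0 of 884 (interval 0 to 0.416%), against 0.304% of all merged regions and 0.791% of those with H3K4me3.

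Some control lists overlapped more members than their own FLAG lists. The EP300 face control overlapped 129 members (14.6%, against 26.5% of all merged regions) and the SMARCA4 midbrain control 96 (10.9%, against 27.2%), more than the 8 and 12 of their own FLAG samples. These control lists were also the longer, with 28895 peaks against 3589 for EP300 in face and 19772 against 1513 for SMARCA4 in midbrain. Of the EP300 face lists, 0.488% of control peaks and 0.223% of FLAG peaks lay in members. For the midbrain lists it was 0.536% and 0.793%. The NCOA2 and NCOA1 control lists were longer too (6781 peaks against 3444, and 1990 against 1414). The NCOA2 control overlapped 26 (2.94%, against 8.93%), the NCOA1 control 14 (1.58%, against 1.09%), the SMARCC2 face control 5 (0.566%, against 0.238%) and the SMARCC2 hindbrain control 2 (0.226%, against 0.818%). For SMARCA4 the control samples of neural tube, limb, heart and forebrain were not analysed here, and neither ESC list has a control list among the files used. For face and neural tube SMARCA4 and for the ESC lists, how much of the overlap a control of the same sample would share was therefore not tested.

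**Figure D3:**
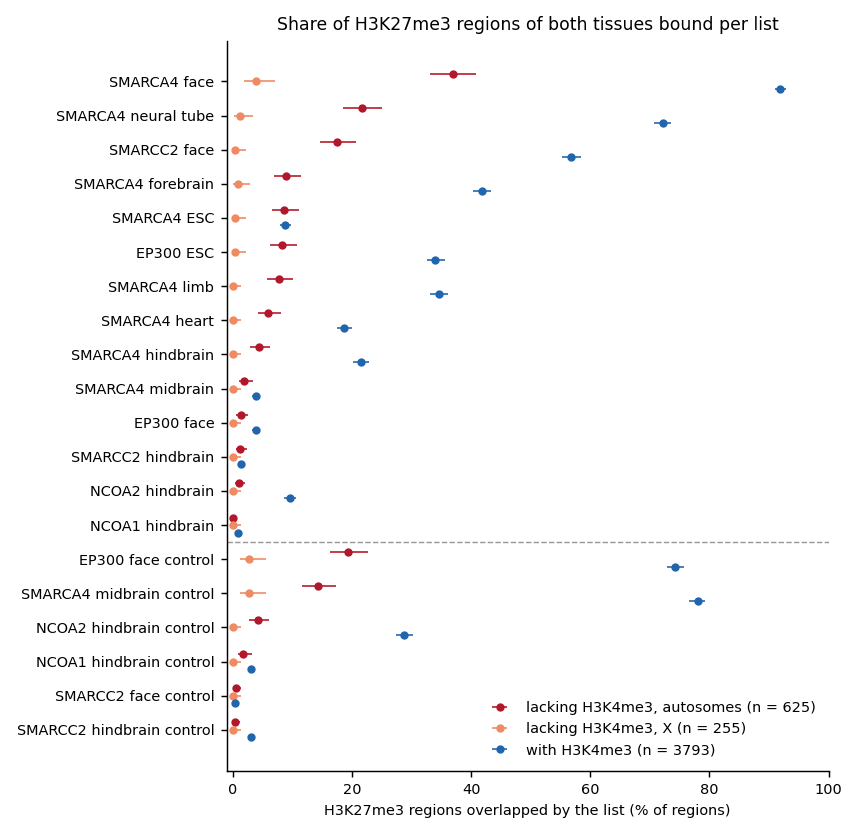
Share of H3K27me3 regions of both tissues overlapped by each FLAG list (above the dashed line) and control list (below it), with exact 95% intervals (x axis, percent of regions). Autosomal members stand left of regions with H3K4me3 in most lists, close to them for SMARCA4 in ESC, and X-linked members stay below 4%.

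The difference between members and regions with H3K4me3 was small for SMARCA4 in ESC. It overlapped 55 members (6.22%, interval 4.72 to 8.02%), against 4.08% of all merged regions and 8.81% of regions with H3K4me3. Per length of autosomal region it had 18.5 peaks per Mb in members and 13.5 in regions with H3K4me3, a ratio of 1.37. Regions of 1 tissue, over all chromosomes, had 14.8. The same ratio was 0.710 for midbrain SMARCA4, 0.524 for face SMARCA4, 0.305 for limb, 0.292 for forebrain, 0.339 for ESC EP300 and 0.143 for NCOA2. Only SMARCC2 in hindbrain, with 7 peaks in members, was also above 1 among FLAG lists (1.16), and the SMARCC2 face control, with 3 in autosomal members, had 1.62. In members free of any control or input peak (697), ESC SMARCA4 overlapped 5.45% and ESC EP300 2.15%.

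Of all 884 members, 363 overlapped a tissue FLAG list, against 3694 of 3793 regions with H3K4me3 and 4890 of 13426 regions of 1 tissue. The kinds of region thus differed in tissue peaks also without regard to the ESC lists, and the shares below carry that difference. Of the 55 with ESC SMARCA4, 21 overlapped no tissue FLAG list (38.2%), against 9 of 334 regions with H3K4me3 (2.69%) and 28.7% of those of 1 tissue. Of the 54 with ESC EP300, 7 did (13.0%). Of the 101 members that either ESC list overlapped, 27 had no tissue peak (26.7%), against 15 of 1475 regions with H3K4me3 (1.02%) and 186 of 910 regions of 1 tissue (20.4%). These 27 are 3.05% of the 884, and 1.26% of all merged regions were of this kind. The 2 ESC lists shared 8 members, 14.5% of those with SMARCA4 and 14.8% of those with EP300. ESC peaks in members had a median of 9.5 tags for SMARCA4, close to the 9 of the whole list, and of 7 for EP300, as in its whole list (the authors' counts).

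Several of these regions lay at genes of the pluripotent state, chosen here after their values were seen. Nanog, a core pluripotency factor, started inside chr6:122655732-122659353, a region of 3622 bp with limb H3K27me3 throughout and forebrain H3K27me3 over 741 bp. ESC SMARCA4 was its only FLAG list, with a peak of 25 tags wholly inside, and no control list overlapped. Tdgf1, which encodes the NODAL co-receptor CRIPTO, started inside chr9:110846137-110852203. There ESC SMARCA4 had a peak of 64 tags, which ranked 68th of 6764, ESC EP300 one of 6 tags, and face SMARCA4 another. Pou5f1, which encodes OCT4, started inside chr17:35641384-35645612, but its ESC SMARCA4 peak of 32 tags reached only 4 bp into the region and its face peak 34 bp. H3K4me3 lay 2503 bp from the Nanog region, 3649 bp from that of Tdgf1 and 5974 bp from that of Pou5f1. Pomc, the hormone precursor of the pituitary and hypothalamus, also had ESC SMARCA4 as its only list.

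**Figure D4:**
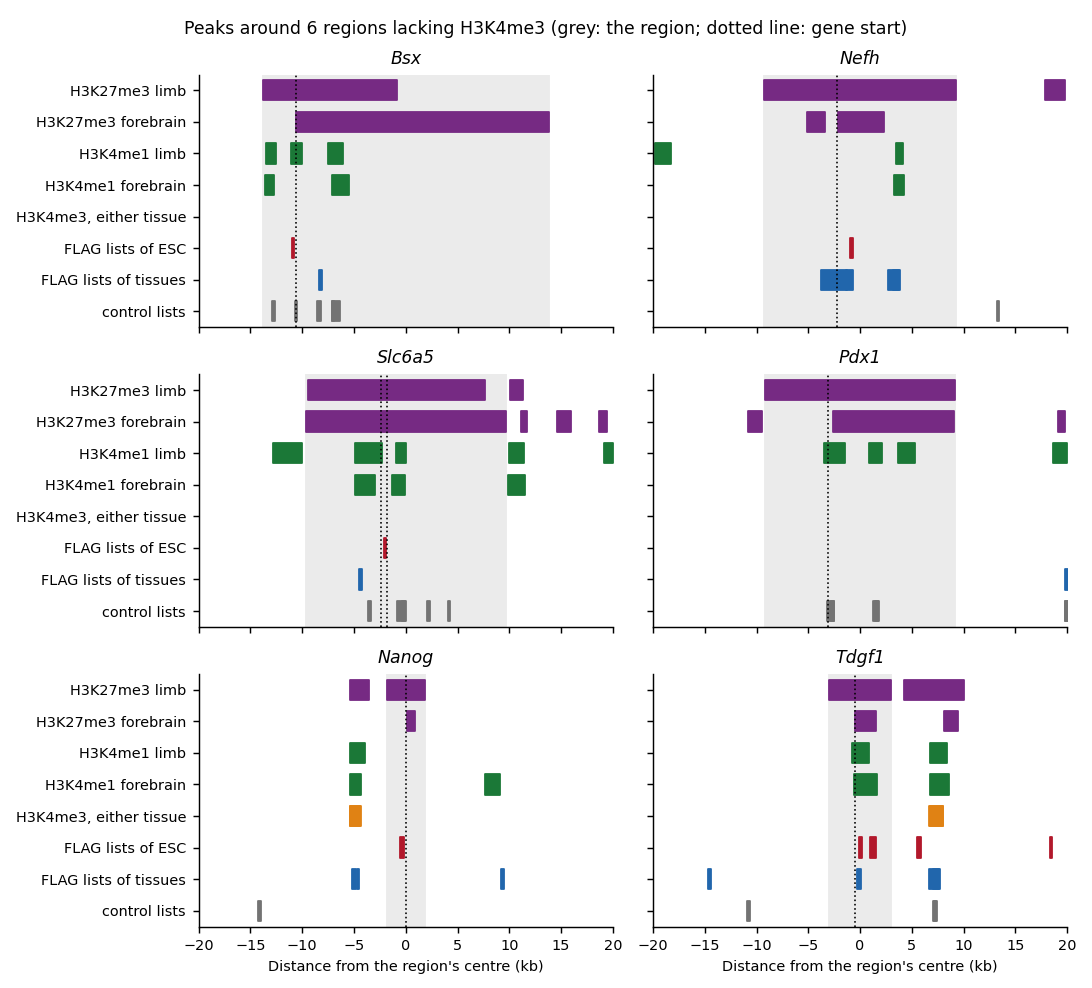
Peaks within 20 kb of the centres of 6 members (x axis, kb from the region's centre; grey, the region; dotted line, gene start; rows, lists). H3K27me3 covers each gene start in at least 1 tissue, ESC peaks lie inside the Bsx, Nefh, Slc6a5, Nanog and Tdgf1 regions, and the Pdx1 region has control peaks but no FLAG peak.

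The developmental genes in the widest regions differed in what overlapped them. Bsx had ESC EP300 (10 tags) and face SMARCA4, together with 3 control lists. Slc6a5 had ESC SMARCA4 (12 tags) and face SMARCA4, also with 3 control lists. Pdx1 had no FLAG list and 3 control lists. Nefh had 5 FLAG lists, ESC SMARCA4, face EP300, face SMARCA4, face SMARCC2 and neural tube SMARCA4, and no control peak.

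Of the 5 regions with 6 or 7 FLAG lists, all but the first were wider than the median member. First was chr4:124977001-124978819 (1819 bp, between AK006677 and Grik3) with 7 lists, among them both ESC lists and 3 of face. The regions over Prkcb, which encodes protein kinase C beta, over Cebpd, a C/EBP transcription factor, over AK138296 and over the glucocorticoid receptor gene Nr3c1 had 6 each. Prkcb carried SMARCA4 of face, forebrain, limb and neural tube, SMARCC2 of face and EP300 of ESC. Cebpd carried SMARCA4 of 6 sources, ESC, face, forebrain, heart, limb and neural tube. Each of these 5 regions also held at least 1 control peak. Regions with 5 lists were named by width, so their width is no result, and a region of 2262 bp near F2rl1 also had 5. Among the widest were the region between Cd40 and Cdh22, Nefh, chr5:120727863-120739397 near AK076949 and chr19:44768499-44777738 at 54145 bp from Pax2.

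Members that held a gene start were wider (median 5330 bp against 2718 bp) and more often overlapped. Of 105, 94 had a FLAG peak (89.5%) and 62 a control peak (59.0%), against 296 (38.0%) and 121 (15.5%) of the 779 without a start. Since starts were placed from peaks of these tables, a start is more readily placed where peaks are, and the difference is not read as one between the regions.

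FLAG peaks moved with H3K4me1. Of the 228 autosomal members with H3K4me1 of both tissues, 76.8% overlapped a FLAG list (interval 70.7 to 82.1%). With limb H3K4me1 only it was 60% of 155 (51.8 to 67.8%), with forebrain H3K4me1 only 58.3% of 60 (44.9 to 70.9%), and with neither 39.6% of 182 (32.4 to 47.1%). Control lists moved the same way, on 34.2%, 31.6%, 25% and 15.4%. So did width, with medians of 4496.5, 4268, 3393 and 2714 bp, and the part of either in the difference was not tested. Limb SMARCA4 showed no clear order by limb H3K4me1, and its intervals overlapped. It overlapped 6.45% of autosomal members with H3K4me1 of limb only (interval 3.14 to 11.5%) and 9.34% of those with neither (5.54 to 14.5%). With H3K4me1 of both tissues the share was 8.33%, and with forebrain only 3.33%. Forebrain SMARCA4 overlapped 14.0% with H3K4me1 of both tissues (interval 9.80 to 19.2%) and 9.68% with limb only (5.52 to 15.5%). With forebrain only it was 5% (3 of 60, 1.04 to 13.9%) and with neither 3.30% (1.22 to 7.04%). The interval for forebrain only overlaps all the others, so whether forebrain SMARCA4 followed forebrain H3K4me1 alone cannot be told.

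**Figure D5:**
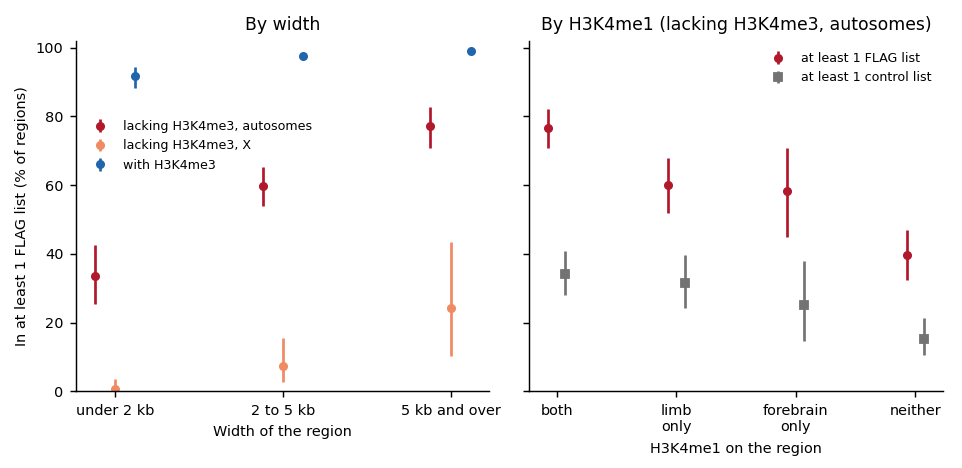
Share of regions in at least 1 FLAG list by width (left) and, for autosomal members, in at least 1 FLAG or control list by H3K4me1 (right), with exact 95% intervals (y axis, percent of regions). Autosomal members rise from 33.6% to 77.2% with width and fall from 76.8% with H3K4me1 of both tissues to 39.6% with neither.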

How the data were processed

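ChIP-seq peak lists of 30 of 34 samples were used, and 4 control samples were left out. The submitters' processing notes name BWA and the build mm9. Which program called the peaks is not given in the sources used here. Per the file headers, 16 deposited tables give a count of tags per peak, a fold ratio, a score on a log10 scale of the p-value, a conservation score and a false discovery rate in percent, all by the authors; 14 deposited lists hold positions and a rank. Library depth is unknown.

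H3K27me3 rows that overlapped or touched were merged. Overlap was 1 bp or more unless stated. The overlap code was tested on simulated data. Of 23432 gene names, 18935 were placed, with 0 conflicts. Symbols were matched to RefSeq (GRCm38.p6), 13013 of 16026; no coordinate of that build was used other than those of the promoters. Named were the 10 widest regions, the 10 in most FLAG lists, up to 3 per gene list, the 5 nearest to H3K4me3 and just outside it, and 5 with H3K27ac; some of them are not reported here. The members and lists were chosen with earlier results of these data known. Python 3.11.15, pandas 2.3.3 and scipy 1.17.1 were used.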

Additional observations from a re-analysis of the deposited data

How the results depend on the processing

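Leaving out regions with H3K4me3 within 1 kb kept 842 regions. The shares over single FLAG and control lists, any FLAG or control list, H3K4me1, starts and X stayed within the intervals of all members. Requiring a common base pair kept the same 884 regions, so no share could change. Joining rows up to 1 kb apart gave 1024 regions, of which 40.4% overlapped a FLAG list and 34.4% lay on X. With the better-ranked 50% of the H3K27me3 lists, 253 regions remained: 78.3% overlapped a FLAG list, 44.7% a control list, 65.2% limb and 47.8% forebrain H3K4me1, 28.9% held a start and 5.53% lay on X. With at least 50% of the peak inside, 40.5% overlapped a FLAG list. Cutting each FLAG and control list to its 921 best-ranked peaks gave 7.13% and 1.92% for FLAG and control lists. Without members that held a control or input peak, the shares were 33.4% for FLAG lists, 40.9% and 29.6% for H3K4me1 of limb and forebrain, 6.17% for starts and 35.2% for X. On autosomes alone they were 60% for FLAG and 27.2% for control lists, 61.3% and 46.1% for H3K4me1, and 16.2% for starts. Under 2 kb, 2 to 5 kb, and 5 kb and over, FLAG lists overlapped 16.0%, 48.3% and 70.7%, forebrain H3K4me1 14.5%, 40.1% and 49.1%, and X held 53.1%, 21.2% and 12.5%. In the narrowest and widest class, control lists overlapped 4% and 44.4%, limb H3K4me1 22.9% and 71.6%, and a start lay in 1.09% and 25.9%. The cause of these shifts was not tested. Of the 20 single FLAG and control lists, 16 moved beyond their interval with the better-ranked 50%, 14 at the length of the shortest list, 10 on autosomes alone, 2 with 50% of the peak inside, and 18, 3 and 15 in the 3 width classes. Without members that held a control peak, 5 of 14 FLAG lists moved. No paired analysis was possible because each condition has 1 library.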

Other observations

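Some groups of neighbouring members lay beside homeobox genes, while the largest, of 24, lay on X beside Rai2 and Nhs. Between the starts of Irx3 and Irx5 on chromosome 8, which lie 556421 bp apart, 9 members covered 89806 bp, and 6 of them overlapped a FLAG list and 3 a control list. On chromosome 13, 4 members lay between Irx1 and Irx2 and 5 between Irx2 and Irx4, all Iroquois homeobox genes. Another 6 members lay within 94426 bp around Dbx1, a homeobox gene of spinal cord interneurons. In all, 117 groups of at least 2 members with gaps of no more than 50 kb held 360 of the 884 regions, and 42 groups of at least 3 held 210. These genes were picked after the values were seen.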
